A study of Mus musculus with 7 samples.

Results

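T-cell exhaustion describes the state of T-cells that see antigen for long periods. Such cells display several inhibitory receptors together, and the nuclear factor Tox holds the state in place. PD-1 (gene Pdcd1) recruits phosphatases to the T-cell receptor, whereas LAG-3 (Lag3) binds MHC class II, TIM-3 (Havcr2) binds galectin-9 and phosphatidylserine, and BTLA (Btla) and CD160 (Cd160) share the ligand HVEM. CD39 (Entpd1) and CD73 (Nt5e) are surface enzymes that together turn extracellular ATP into adenosine, which dampens T-cells. All of these proteins also occur outside exhausted T-cells: PD-1 and LAG-3 mark recent activation, TIM-3 is displayed by dendritic cells and macrophages, BTLA by B-cells, and CD39 by myeloid cells and regulatory T-cells.

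Here the RNA of 9 genes, Pdcd1, Lag3, Havcr2, Cd160, Btla, Entpd1, Nt5e, Tox and Tox2, was examined in T-cells of ORP4L KI mice and of their WT littermates. The genes were taken by name from the 25033 genes listed for each library, and all 9 were found and passed the filter for low counts. The mice were of the C57BL/6J strain and 15 months old in both groups, and 1 library was made per mouse, 4 from ORP4L KI mice at a moribund stage and 3 from WT. ORP4L KI mice carry the coding sequence of human ORP4L in the Rosa26 locus behind a CAG promoter and a loxP-flanked stop, which a Cre driven by the Lck promoter removes in T-cells. Whether the WT littermates carried the Cre transgene is not stated in the sources used here. The study describes the KI cells as deteriorating leukemic T-cells, and the question addressed here was whether RNA of exhaustion genes differed between these cells and WT T-cells. Mouse T-cells were taken from blood or spleen, CD4+ cells were selected with a kit for naive cells, and cultures received IL-2 and PHA. Which of these steps apply to the RNA libraries is not stated.

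Between 12918187 and 19665679 reads were counted per library. The Osbp2 gene, to which ORP4L corresponds, was read 0, 0 and 1 times in the WT libraries, and 188, 742, 155 and 443 times in ORP4L KI replicates 1 to 4. The insert is human, so reads on the mouse gene depend on shared sequence. All 12 T-cell markers examined were detected in every library, with a summed level of 2689 to 3473 CPM (read counts scaled to a common library size, with TMM factors) in WT and 1681 to 4416 CPM in ORP4L KI. The lowest sum was that of ORP4L KI replicate 1 and the highest that of ORP4L KI replicate 2. Cd8a was present beside Cd4 in all libraries, at 124 to 179 CPM in WT and 79.6 to 226 CPM in ORP4L KI. Granulocyte markers (14 genes) summed to 2315 to 5368 CPM in WT and to 142547, 10175, 30468 and 52260 CPM in ORP4L KI replicates 1 to 4. The labels give no sex, but Xist was at 373 CPM in WT replicate 1 and at 391 and 651 CPM in ORP4L KI replicates 1 and 2. The other 4 libraries had 15.7 to 22.3 CPM. Ddx3y, a gene of the Y chromosome, was at 0.559 CPM in WT replicate 1 and at 3.35 and 2.85 CPM in ORP4L KI replicates 1 and 2. It was at 121 to 208 CPM in the other 4 libraries. By this RNA, WT replicate 1 and ORP4L KI replicates 1 and 2 were female and the other 4 male, so both groups mix the sexes. Any fit without WT replicate 1 therefore has only male WT libraries. In bulk libraries, fewer cells of a type and less RNA of a gene per cell cannot be told apart.

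Havcr2 alone among the 9 genes was past the thresholds of the comparison, and it was lower, not higher, in ORP4L KI T-cells. The thresholds, those drawn in the study's volcano plot, require p below 0.01 and a log2 change of more than 1 up or down. They were passed by 630 of 13462 genes tested (4.68%), 320 of them higher (2.38%) and 310 lower (2.30%) in ORP4L KI. With only 9 genes, a count of 1 cannot be told apart from that share. No member had an adjusted p under 0.05 in edgeR's quasi-likelihood test, a threshold that 3 genes met (0.0223%), and only Havcr2 had an unadjusted p under 0.05. The median log2 fold change of the 9 genes was -0.10, against 0.01 over all genes tested. Of these genes 4 had a log2 fold change above 0 and 5 below 0.

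**Figure D1:**
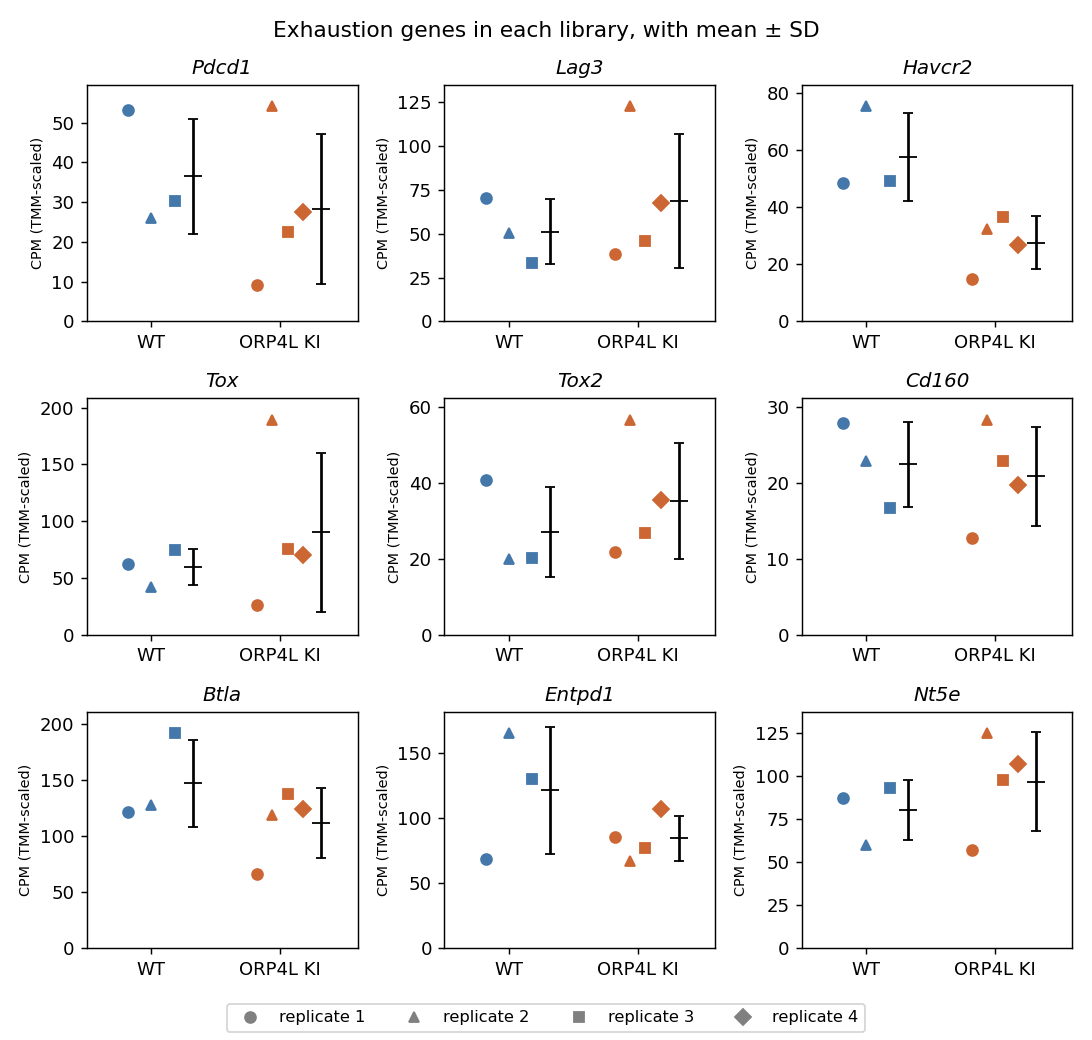
Level of each of the 9 genes in CPM (TMM-scaled, linear axis from 0) in 3 WT libraries (blue) and 4 ORP4L KI libraries (orange), 1 point per mouse, with bars for the mean ± SD. The groups are apart for Havcr2 only, and ORP4L KI replicate 2 (orange triangle) is the highest library for 6 genes.

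Havcr2 (NM_134250, chromosome 11, 46454931 to 46481255, build GRCm38) encodes TIM-3. WT replicates 1, 2 and 3 had 48.3, 75.2 and 49.0 CPM of Havcr2. ORP4L KI replicates 1, 2, 3 and 4 had 14.9, 32.4, 36.5 and 26.6 CPM. Every ORP4L KI library lay below every WT library, as was the case for 7.38% of the genes tested. The means were 57.5 ± 15.3 CPM (SD, n = 3) and 27.6 ± 9.41 CPM (SD, n = 4), and the log2 fold change was -1.06 (standard error 0.31, 95% interval -1.75 to -0.37), a 0.480-fold level. Its unadjusted p was 0.00704 and its adjusted p 0.153 in edgeR's quasi-likelihood test. An exact permutation test (two-sided) over the 35 splits of 4 libraries against 3 gave p = 0.0571, where the smallest possible is 0.0286. The adjusted p ranged from 0.0352 to 0.510 over the alternatives, and was 0.0439 by DESeq2's Wald test. Havcr2 was no longer past the thresholds in 5 of the 7 fits without 1 library. Without WT replicate 2 its change was -0.82 on the log2 scale, and without ORP4L KI replicate 1 it was -0.85, both under the fold threshold (adjusted p = 0.510 and 0.121 by edgeR). Without WT replicate 1, WT replicate 3 or ORP4L KI replicate 4 it was -1.17, -1.16 and -1.05, and the p threshold was missed (adjusted p = 0.295, 0.232 and 0.342 by edgeR). Among the libraries with high Xist, Havcr2 was at 48.3 CPM in WT and at 14.9 and 32.4 CPM in ORP4L KI, and among the others it was at 75.2 and 49.0 CPM in WT and at 36.5 and 26.6 CPM in ORP4L KI.

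Dendritic cells display TIM-3 themselves, and their markers went in the same direction as Havcr2. The 8 dendritic cell markers, Cd209a, Flt3, Xcr1, Clec9a, Zbtb46, Itgax, Siglech and Clec10a, were all detected in every library. Their sum was 567, 770 and 499 CPM in WT replicates 1, 2 and 3, and 152, 208, 269 and 183 CPM in ORP4L KI replicates 1 to 4. The groups did not overlap, and 7 of the 8 markers were past the thresholds, all lower in ORP4L KI. Within ORP4L KI the libraries had the same order by Havcr2 and by this sum, and over all 7 libraries only WT replicates 1 and 3 changed places. Per 100 CPM of dendritic cell markers, Havcr2 was at 8.52, 9.77 and 9.82 CPM in WT and at 9.80, 15.6, 13.6 and 14.6 CPM in ORP4L KI, so on this scale it was not lower in ORP4L KI. Monocyte and macrophage markers (12 genes, all detected) summed to 2954 to 5262 CPM in WT and 2203 to 8015 CPM in ORP4L KI, ranges that overlap. Of these 12 markers, 9 had a log2 fold change below 0 and 3 above 0. Past the thresholds were 2 lower and 1 higher in ORP4L KI. Groups were apart for 3 with ORP4L KI lower and for 1 with ORP4L KI higher. The part of dendritic cells, monocytes and macrophages in the Havcr2 difference was not tested.

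**Figure D2:**
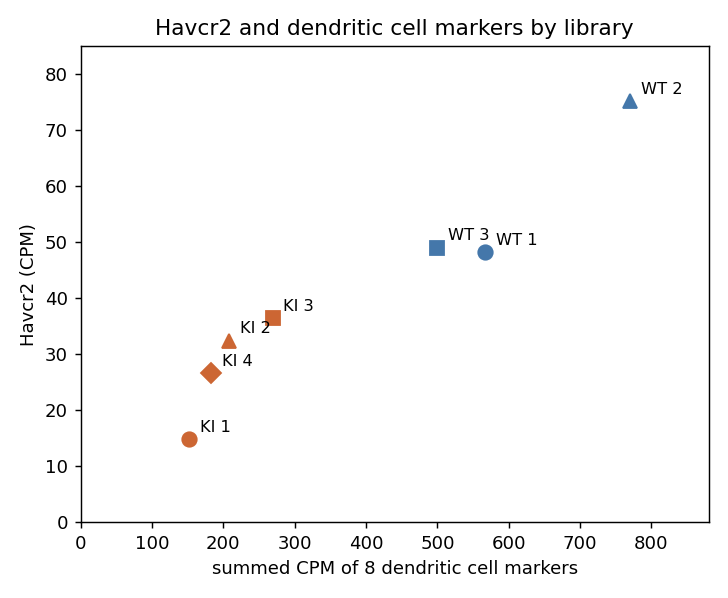
Havcr2 (CPM, vertical axis) against the summed CPM of 8 dendritic cell markers (horizontal axis) in 3 WT libraries (blue) and 4 ORP4L KI libraries (orange), numbered by replicate. The ORP4L KI libraries reach at most 269 CPM of markers and 36.5 CPM of Havcr2, and every WT library exceeds both.

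Pdcd1 (NM_008798), the gene of PD-1, had 53.0, 26.1 and 30.3 CPM in WT replicates 1, 2 and 3. In ORP4L KI replicates 1 to 4 it had 9.07, 54.1, 22.4 and 27.6 CPM. The ORP4L KI libraries thus held both the lowest and the highest value of the 7, and 2 of the 4 were below every WT library. The log2 fold change was -0.37 (standard error 0.50, 95% interval -1.50 to 0.76, adjusted p = 0.835 by edgeR), an interval that runs from 0.355- to 1.70-fold. Its direction rested on single mice, with a log2 fold change of 0.0046 without WT replicate 1 and -0.91 without ORP4L KI replicate 2.

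Promoter sequence is shown for the receptor genes at the ends of the result, Havcr2 as the gene past the thresholds and Pdcd1 as the receptor whose estimate depended most on single mice. The letters are the 250 bases before the start in the RefSeq table (GRCm38.p6). The bases after that start were found unbroken in a transcript of Pdcd1 but not of Havcr2. The sequences have capitals for matches on either strand to GGAAA, the core bound by NFAT, and to TGANTCA, bound by AP-1, factors that act downstream of the T-cell receptor.
Havcr2 (chr11:46454681-46454930, plus strand): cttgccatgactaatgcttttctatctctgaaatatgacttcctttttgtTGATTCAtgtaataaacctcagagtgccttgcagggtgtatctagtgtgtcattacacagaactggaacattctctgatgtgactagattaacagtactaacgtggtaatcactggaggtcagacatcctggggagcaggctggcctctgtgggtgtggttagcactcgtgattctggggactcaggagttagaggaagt
Pdcd1 (chr1:94052554-94052803, minus strand): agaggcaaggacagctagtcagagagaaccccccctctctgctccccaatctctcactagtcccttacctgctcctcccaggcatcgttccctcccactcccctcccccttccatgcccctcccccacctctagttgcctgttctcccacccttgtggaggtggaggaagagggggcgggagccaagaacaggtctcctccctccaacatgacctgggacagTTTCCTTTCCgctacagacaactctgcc
Havcr2 had 1 match to TGANTCA and 0 to GGAAA, and Pdcd1 had 2 matches to GGAAA and 0 to TGANTCA. Windows of this length were found for 7 of the 9 genes (not Lag3 and Tox). GGAAA was present in 55.6% and TGANTCA in 6.75% of 32851 such windows of all genes, so the former is common by its shortness, and a match is a description of letters only.

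Lag3 (NM_008479) had 70.2, 50.4 and 33.2 CPM in WT and 38.4, 122.6, 45.8 and 67.7 CPM in ORP4L KI replicates 1 to 4. Only ORP4L KI replicate 2 was above every WT library. For Lag3 the log2 fold change was 0.42 (standard error 0.41, 95% interval -0.51 to 1.35, adjusted p = 0.751 by edgeR) and was -0.029 without that replicate.

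Cd160 encodes a receptor of natural killer cells and cytotoxic T-cells that is anchored by lipid. It had 27.9, 22.8 and 16.7 CPM in WT and 12.7, 28.3, 22.9 and 19.7 CPM in ORP4L KI. Its change was -0.10 on the log2 scale (standard error 0.29, 95% interval -0.77 to 0.56, adjusted p = 0.926 by edgeR). The interval leaves out a doubling or halving of the level. Of 9 NK cell markers, 7 had a log2 fold change below 0 and 4 were past the thresholds, all lower in ORP4L KI. In 5 of them the groups did not overlap with ORP4L KI lower, and in 2 with ORP4L KI higher. Their sum was 702 to 867 CPM in WT and 496 to 1133 CPM in ORP4L KI. The highest sum and the highest Cd160 level were both those of ORP4L KI replicate 2. Eomes is 1 of the 2 markers with groups apart and ORP4L KI higher, and it is also a factor of effector and exhausted T-cells. Eomes had 65.9 to 101 CPM in WT and 105, 534, 218 and 184 CPM in ORP4L KI replicates 1 to 4. Both the overlap of the sums and the top place of ORP4L KI replicate 2 rest on Eomes. Without Eomes the sum of the NK cell markers was lower in every ORP4L KI library than in any WT library, though narrowly for ORP4L KI replicate 2.

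Btla was at 121, 128 and 192 CPM in WT and at 65.9, 119, 137 and 124 CPM in ORP4L KI. Its log2 fold change was -0.40 (standard error 0.28, 95% interval -1.03 to 0.24, adjusted p = 0.621 by edgeR), and 2 of 4 ORP4L KI libraries were below every WT library. B-cells are a major source of Btla in lymphoid tissue. Their 12 markers summed to 673, 581 and 417 CPM in WT replicates 1, 2 and 3, the last being the library with the most Btla, and to 238 to 713 CPM in ORP4L KI. Of these 12 markers, 11 had a log2 fold change below 0, as Btla did, and 1 above 0. None was past the thresholds, and none had groups apart. The part of B-cells in the Btla level, and of NK cells in that of Cd160, was not tested.

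Entpd1, whose product CD39 degrades ATP and ADP to AMP, had 68.7, 165 and 130 CPM in WT and 85.6, 67.1, 77.0 and 107 CPM in ORP4L KI replicates 1 to 4. The log2 fold change was -0.53 (standard error 0.30, 95% interval -1.19 to 0.14, adjusted p = 0.498 by edgeR). WT replicate 1 was as low as the ORP4L KI libraries, and without it every ORP4L KI library was below the other WT libraries, as groups were apart for 19.1% of genes in that fit. Among the libraries with high Xist, Entpd1 was at 68.7 CPM in WT and at 85.6 and 67.1 CPM in ORP4L KI. Among the others it was at 165 and 130 CPM in WT and at 77.0 and 107 CPM in ORP4L KI. The part of sex in this was not tested. The log2 fold change of Entpd1 was -0.81 without WT replicate 1 and -0.24 without WT replicate 2 (adjusted p = 0.298 and 0.859 by edgeR). Nt5e, whose product CD73 converts AMP to adenosine, had 87.2, 60.2 and 93.1 CPM in WT and 57.3, 125, 97.8 and 107 CPM in ORP4L KI. For Nt5e 3 of 4 ORP4L KI libraries were above every WT library while ORP4L KI replicate 1 was the lowest of all, and the log2 fold change was 0.27 (standard error 0.28, 95% interval -0.36 to 0.91, adjusted p = 0.767 by edgeR). The estimates for these enzymes had opposite signs, and neither was past the thresholds.

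Tox encodes an HMG-box protein that acts early in T-cell development and again in exhaustion. Tox had 62.4, 42.2 and 74.2 CPM in WT and 25.8, 189, 75.6 and 70.0 CPM in ORP4L KI replicates 1 to 4. ORP4L KI replicate 2 was 7.34 times as high as ORP4L KI replicate 1, the widest range of any of the 9 genes within a group. For Tox the log2 fold change was 0.60 (standard error 0.54, 95% interval -0.62 to 1.82, adjusted p = 0.721 by edgeR), and -0.081 without ORP4L KI replicate 2. Tox2, a related factor of follicular helper and exhausted T-cells, had 40.7, 20.1 and 20.3 CPM in WT and 21.9, 56.6, 26.8 and 35.6 CPM in ORP4L KI. Its log2 fold change was 0.38 (standard error 0.38, 95% interval -0.46 to 1.23, adjusted p = 0.750 by edgeR). For Tox2 it was 0.043 without ORP4L KI replicate 2 and 0.80 without WT replicate 1.

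**Figure D3:**
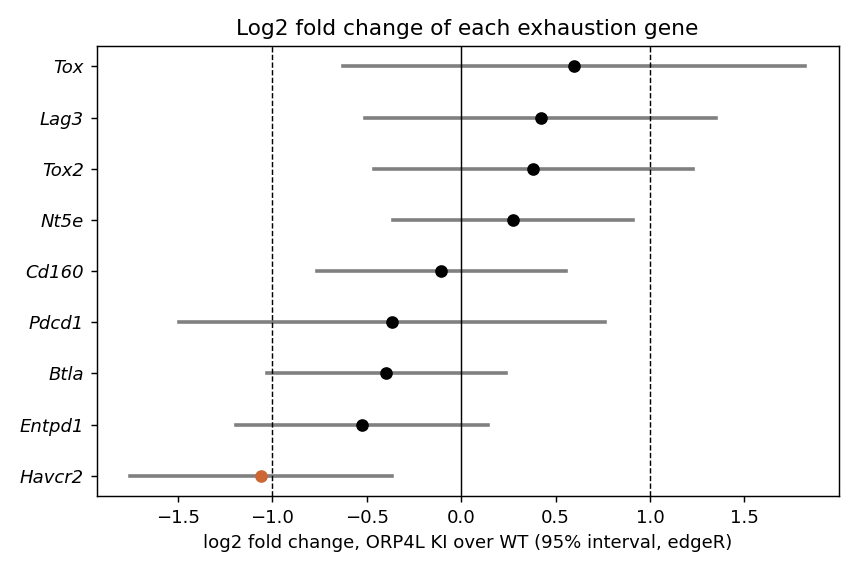
Log2 fold change of ORP4L KI over WT for each of the 9 genes (points) with its 95% interval from edgeR's fit (bars), ordered by size, with dashed lines at the fold threshold. Only the interval of Havcr2, from -1.75 to -0.37, lies wholly on one side of 0.

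The spread of these genes among ORP4L KI mice followed single libraries. ORP4L KI replicate 2 was the highest of the 7 libraries for 6 of the 9 genes, Pdcd1, Lag3, Tox, Tox2, Cd160 and Nt5e. ORP4L KI replicate 1 was the lowest of the 7 for 6 genes and the lowest ORP4L KI library for 8, all but Entpd1. These were also the libraries with the highest and the lowest sum of T-cell markers, and ORP4L KI replicate 1 had the highest sum of granulocyte markers. The counts were therefore also set against the summed counts of the 12 T-cell markers of the same library. On that scale ORP4L KI replicate 1 was the lowest ORP4L KI library for 2 genes, Pdcd1 and Tox. The ratio of ORP4L KI replicate 2 to ORP4L KI replicate 1 went from 7.34 to 2.79 for Tox, from 5.96 to 2.27 for Pdcd1 and from 3.20 to 1.22 for Lag3, and for the other 6 genes from 0.784 to 2.58 in CPM to 0.298 to 0.984 on the T-cell scale. For Entpd1 it moved away from 1, from 0.784 to 0.298, and the ORP4L KI values of Entpd1 ran from 15.2 to 50.9 per 1000 T-cell marker counts. On this scale ORP4L KI replicate 1 was the highest ORP4L KI library for 4 genes, Tox2, Cd160, Entpd1 and Nt5e.

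Havcr2 stayed lower on the T-cell scale. Per 1000 T-cell marker counts its WT values were 13.9, 28.0 and 14.3 and its ORP4L KI values 8.83, 7.34, 10.7 and 6.67. The groups did not overlap, as for 6.39% of genes with this scaling. With T-cell scaling its log2 fold change was -1.16, but the p threshold was missed (adjusted p = 0.449 by edgeR). None of the other 8 genes had groups apart on this scale. Pdcd1 was at 15.3, 9.70 and 8.85 per 1000 T-cell marker counts in WT and at 5.39, 12.2, 6.57 and 6.90 in ORP4L KI, where 3 of 4 libraries were below every WT library. Nt5e was at 25.1, 22.4 and 27.2 in WT and at 34.1, 28.3, 28.7 and 26.9 in ORP4L KI, where 3 of 4 were above every WT library.

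**Figure D4:**
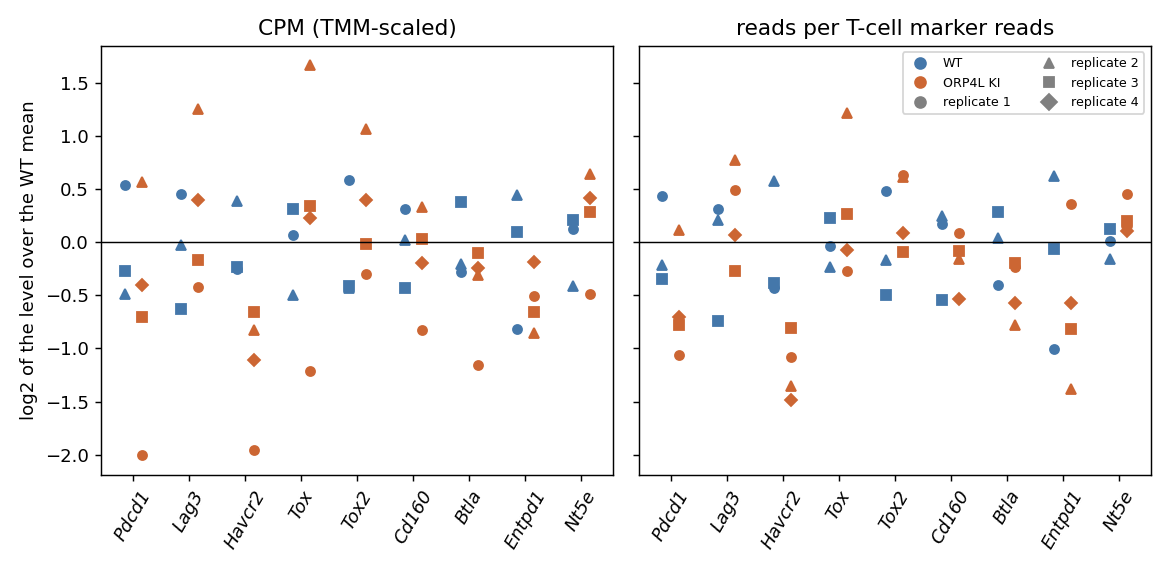
Level of each of the 9 genes in every library as the log2 of its ratio to the WT mean, in CPM (left) and in counts per T-cell marker counts (right), for WT (blue) and ORP4L KI (orange), with symbols for the replicate. ORP4L KI replicate 1 (orange circle) is the lowest ORP4L KI library for 8 genes on the left and for 2 on the right.

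Levels were compared between genes in RPKM as deposited by the authors, which divides by transcript length. In WT, Btla had the highest level (48.4 ± 14.7 RPKM, SD, n = 3) and Cd160 the lowest (9.67 ± 2.42 RPKM). Between them, in falling order, were Entpd1, Lag3, Nt5e, Tox, Havcr2, Pdcd1 and Tox2, from 30.2 to 10.5 RPKM. Only Btla and Entpd1 were neighbours whose ranges did not overlap. In ORP4L KI the order was Lag3 (34.1 ± 22.5 RPKM, SD, n = 4), Btla, Tox, Nt5e, Entpd1, Pdcd1, Tox2, Havcr2 and Cd160 (8.37 ± 3.45 RPKM), and the ranges of all neighbours overlapped. Lag3 was above Btla in only 1 of the 4 libraries. With TMM-scaled CPM per kilobase Btla (34.5) was above Lag3 (34.3). Without ORP4L KI replicate 2 the mean of Lag3 was 23.3 RPKM against 31.5 RPKM for Btla, and that of Tox was 18.8 RPKM in place of 32.2 RPKM. Havcr2 went from 22.2 ± 4.67 RPKM and the sixth place in WT to 9.95 ± 4.10 RPKM and the eighth in ORP4L KI. With TMM-scaled CPM per kilobase it was above Tox in WT (21.1 against 20.9), and thus in the fifth place.

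The likeness of each gene's profile to those of 11431 other genes was measured as the root mean square difference of centred log2 CPM values over the 7 libraries, as a description. The closest genes were Phf21b and Prkcz for Nt5e (0.0738 and 0.0879), Kremen1 and Carns1 for Btla (0.0913 and 0.0932), Pex11a and Cxcr3 for Tox2 (0.0977 and 0.118), and Tapbpl and Irf7 for Cd160 (0.118 and 0.121). For Havcr2 they were Tmem150c and Carmil3 (0.128 and 0.163), for Tox Ptpn13 and Map2 (0.135 and 0.160), for Lag3 Map6 and Syt11 (0.146 and 0.188), for Entpd1 Zswim4 and Nfe2l2 (0.172 and 0.181), and for Pdcd1 Art2a and Tgtp1 (0.212 and 0.231). The median difference to all genes compared lay between 0.496 and 0.866. Among the 9 genes themselves, Lag3 and Tox2 were the most alike (0.205) and Tox and Entpd1 the least (1.07).

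Other inhibitory receptors were described from a list of 15 genes, of which 14 were found and tested. Of the 14, 2 were past the thresholds, both higher in ORP4L KI. Of all genes tested, 4.68% were past them, and 2.38% were past them and higher. The median log2 fold change of the list was -0.11. Tigit, a receptor of regulatory and activated T-cells that competes with the costimulatory CD226 for the ligand CD155, had 68.2, 46.5 and 55.9 CPM in WT and 69.2, 249, 109 and 135 CPM in ORP4L KI replicates 1 to 4. The groups did not overlap (6.43% of genes tested were higher in this way), but ORP4L KI replicate 1 exceeded WT replicate 1 by less than 1 CPM. On the log2 scale Tigit was higher by 1.31 (standard error 0.40, 95% interval 0.42 to 2.20, adjusted p = 0.170 by edgeR), and it was 0.86 without ORP4L KI replicate 2. Ceacam1, an adhesion receptor that also occurs on granulocytes, had 45.7, 53.8 and 47.1 CPM in WT and 186, 62.4, 93.7 and 92.6 CPM in ORP4L KI. The log2 fold change of Ceacam1 was 1.15 (standard error 0.34, adjusted p = 0.161 by edgeR). It was 0.76 without ORP4L KI replicate 1, the library with the highest Ceacam1 level and the highest granulocyte marker sum, and the part of granulocytes in it was not tested. Reads of Ceacam1 could be shared with its close paralog Ceacam2. Tigit was past the thresholds in 9 of 17 alternatives and Ceacam1 in 8 of 17. With T-cell scaling Tigit stayed past them (log2 fold change 1.20, adjusted p = 0.373 by edgeR). Ceacam1 did not (1.48, adjusted p = 0.697 by edgeR). Over the alternatives the adjusted p ranged from 0.0278 to 0.504 for Tigit and from 0.0325 to 0.697 for Ceacam1, the lowest being that of DESeq2's Wald test for both.

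Ctla4 and Vsir were the inhibitory receptors of that list with the highest levels. Ctla4 was at 233 to 390 CPM in WT and 311 to 757 CPM in ORP4L KI (log2 fold change 0.65, adjusted p = 0.424 by edgeR), and Vsir, which encodes VISTA, at 287 to 332 and 331 to 618 CPM (log2 fold change 0.47, adjusted p = 0.482 by edgeR). Cd244a, chosen after its values were seen, was lower in all ORP4L KI libraries (13.4 to 28.7 CPM, against 37.0 to 53.6 CPM in WT). Its log2 fold change of -0.98 (adjusted p = 0.159 by edgeR) narrowly missed the fold threshold.

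Of the ligands of these receptors 13 of 14 genes were tested, none was past the thresholds, and the median log2 fold change was -0.35, with 10 of 13 below 0. Fgl1, a ligand of LAG-3, had 1 read in ORP4L KI replicate 1 and 0 in the other 6 libraries. Cd274, the gene of the PD-1 ligand PD-L1, had a log2 fold change of -0.13 (adjusted p = 0.884), and Lgals9, the gene of galectin-9, 0.23 (adjusted p = 0.693), both by edgeR. Cd80 and Cd86, the ligands of CTLA-4 and CD28 on antigen-presenting cells, were lower in every ORP4L KI library, at 21.0 to 31.3 CPM against 32.4 to 54.3 CPM for Cd80 and at 26.3 to 39.2 CPM against 50.8 to 87.8 CPM for Cd86. Of all genes tested, 7.38% were lower in this way. Their log2 fold changes of -0.83 and -0.96 were short of the fold threshold. The dendritic cell markers were lower in the same libraries, at a mean sum of 203 CPM against 612 CPM in WT, and their part in these differences was not tested. These 4 genes were chosen after their values were seen. The ligands with the highest levels by the rule were Hmgb1 (log2 fold change 0.47, adjusted p = 0.513) and Lgals3 (0.55, adjusted p = 0.679), both by edgeR.

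Transcription factors of exhaustion gave no calls, with 19 of 20 genes tested and a median log2 fold change of 0.01. Tox3 was under the filter, with 0 to 7 counts a library. Nr4a1 and Nr4a3, immediate-early factors that NFAT induces and that had the highest levels of the list, were at 1700 to 2221 and 462 to 822 CPM in WT and at 1339 to 2319 and 215 to 710 CPM in ORP4L KI (log2 fold changes -0.16 and -0.33, adjusted p = 0.862 and 0.80 by edgeR). Eomes, chosen after its values were seen, narrowly missed the p threshold (adjusted p = 0.178 by edgeR). This T-box factor of effector and exhausted T-cells had 92.7, 65.9 and 101.3 CPM in WT and 105, 534, 218 and 184 CPM in ORP4L KI, with a log2 fold change of 1.59. Tcf7, which marks the stem-like pool of exhausted cells and was also chosen after its values were seen, had a log2 fold change of -0.38 (adjusted p = 0.728 by edgeR).

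Costimulatory receptors (10 of 10 tested) and genes of extracellular ATP and adenosine (10 of 10 tested) gave no calls either, with median log2 fold changes of -0.17 and 0.12. Of the former, Cd28 and Cd2 had the highest levels (log2 fold changes 0.73 and 0.14, adjusted p = 0.632 and 0.912 by edgeR). Cd28 was at 161, 130 and 447 CPM in WT and at 205, 759, 388 and 284 CPM in ORP4L KI, again highest in ORP4L KI replicate 2. Of the latter, Adora2a, the adenosine receptor of T-cells, and Pnp, a purine-salvage enzyme, had the highest levels (log2 fold changes 0.11 and 0.65, adjusted p = 0.921 and 0.407 by edgeR). In all, 2 of 66 genes of the 5 lists were past the thresholds, against 4.68% of all genes tested. Groups did not overlap for 10 of 66, against 13.8% of all genes tested.

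**Figure D5:**
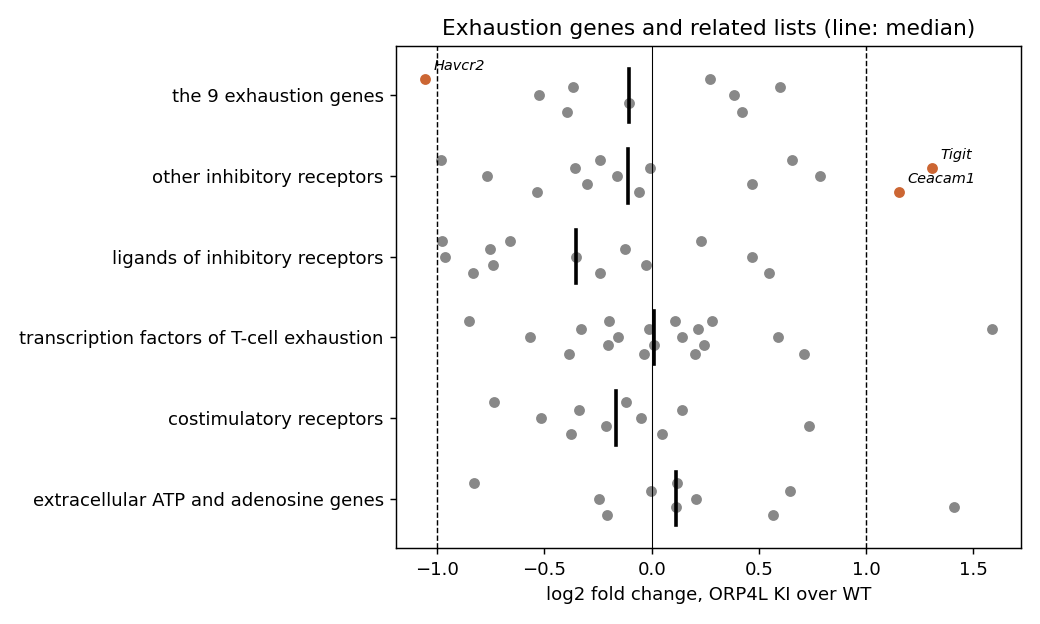
Log2 fold change of ORP4L KI over WT (horizontal axis) for the 9 genes (top row) and 5 lists of related genes, 1 point per gene tested and a black line at each median, with dashed lines at the fold threshold. Orange points with names are the 3 genes past both thresholds, Havcr2 lower and Tigit and Ceacam1 higher.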

How the data were processed

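RNA of T-cells from 4 ORP4L KI and 3 WT mice was extracted with Trizol, made into mRNA libraries and sequenced on an Illumina NovaSeq instrument. The authors trimmed adapters, mapped reads to mouse mRNAs with FANSe3 and deposited for each gene the read count without normalization and the RPKM. The RPKM deposited by the authors uses the longest transcript and served only for levels between genes. The processing notes name mm10. The FANSe3 version, the strand setting and the handling of shared reads are not given in the sources used here, so counts of close paralogs are uncertain.

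Counts were tested in R 4.3.3 with edgeR 4.0.16 (TMM, filterByExpr, quasi-likelihood test, no covariates) over 13462 genes, with Benjamini-Hochberg adjustment over all of them. The standard error is the log2 fold change over the square root of F. The permutation test used the absolute difference of mean log2(CPM + 0.5). The tests were tried on simulated counts with planted changes larger than those of the 9 genes. That trial does not cover changes of their size. DESeq2 1.42.0, edgeR's exact and likelihood ratio tests, other scalings and filters, the replicate block and omission of each library were the alternatives. Each library is 1 mouse, and no pair of libraries of the same group was alike within sampling noise. Named were the 9 genes, of each list the called genes and the 2 with the highest mean log2 CPM, and the 2 nearest profiles per gene (mean log2 CPM at least 1, no predicted genes). The members and lists were chosen with earlier results of these data known. Python 3.11.15, SciPy 1.17.1 and Matplotlib 3.10.9 were used for tables and figures.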

Additional observations from a re-analysis of the deposited data

Results flagged for a closer look

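In ORP4L KI, 30 measures were searched for a value far from the other 3 libraries. Of these, 1 was found, and about 1.5 would arise by chance. Hmgb1, a ligand of TIM-3, was at 919 CPM in ORP4L KI replicate 1, against 501.3 to 515 CPM in the other ORP4L KI libraries. None of the 9 genes had such a library.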

How the results depend on the processing

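Havcr2 was lower in ORP4L KI under all 17 alternatives, from -1.22 to -0.82 on the log2 scale. The number of the 9 genes past the p and fold thresholds, 1, was 0 with scaling to T-cell markers and 0 to 1 with single libraries left out. The number with an adjusted p under 0.05, 0 by edgeR's quasi-likelihood test (1 at an unadjusted p under 0.05), was 1 under the Wald test of DESeq2, 1 under the exact test and 1 under the likelihood ratio test of edgeR, each time Havcr2, and 0 in each fit without 1 library. The number with groups apart, 1, was 1 to 3 without single libraries, in fits where 16.4% to 26.9% of all genes had groups apart against 13.8% with all libraries. Over all genes, 630 calls became 349 with T-cell scaling and 328 to 805 without single libraries. The 3 genes at an adjusted p under 0.05 became 44 with upper-quartile scaling, 113 with total counts, 1 with T-cell scaling, 176 without a filter, 784, 682 and 706 with the Wald, exact and likelihood ratio tests, 48 with the replicate block, 0 with at least 10 counts in every library (1549 at an unadjusted p under 0.05 by edgeR) and 0 to 342 without single libraries. With total counts the median log2 fold change shifted by -0.14, and the share of higher calls was 40.3% in place of 50.8%. For the 9 genes, 142 of the results under alternatives had the same sign and the same call, 6 (all Havcr2) were no longer past them and 5 reversed. The reversals were Pdcd1 (0.0046) and Cd160 (0.080) without WT replicate 1, Lag3 (-0.029) and Tox (-0.081) without ORP4L KI replicate 2, and Cd160 (0.070) without ORP4L KI replicate 1. Among the list genes, Cd2 reversed with the replicate block (-0.10) and without ORP4L KI replicate 2 (-0.0071), and Adora2a with total counts (-0.011), with the block (-0.15) and without ORP4L KI replicate 4 (-0.11). Without single libraries the log2 fold change ranged from -0.91 to 0.0046 for Pdcd1, from -0.029 to 0.72 for Lag3, from -0.081 to 0.90 for Tox, from -0.30 to 0.080 for Cd160, from -0.0071 to 0.39 for Cd2 and from -0.11 to 0.30 for Adora2a. The cause was not tested. Same-numbered libraries had correlated deviations of 0.171, -0.581 and 0.0292, and differently numbered ones ranged from -0.426 to 0.548. These values show no pairing by number, but with so few libraries they cannot exclude it. With the replicate block, which leaves out ORP4L KI replicate 4, 466 genes were called, and Havcr2 stayed past the thresholds (-1.12, adjusted p = 0.236 by edgeR). RPKM levels moved by less than 1 SD in all 81 alternatives, but in TMM-scaled CPM per kilobase 2 of the 9 genes changed place in each group.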
